A study of Homo sapiens with 6 samples.

Results

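The data describe the histone genes in 6 RNA immunoprecipitation sequencing (RIP-seq) libraries from WaGa, an established Merkel cell carcinoma (MCC) cell line that carries Merkel cell polyomavirus. The cells were untreated and wild type. In 3 libraries the RNA came down with an antibody to IGF2BP3 (IMP3 in the labels), an RNA-binding protein, and in the other 3 with a control IgG. Both groups have replicates numbered 1 to 3, and the design text calls them independent. Histone genes were chosen by name among the protein-coding genes of the count table, with earlier results of these data known. This gave 93 of the 60655 genes listed, of which 66 were clustered genes (*H1-1* to *H1-6* and all *H2AC*, *H2BC*, *H3C* and *H4C* genes) and 27 were variant genes (all other H1, H2A, H2B, H3, H4 and macroH2A genes).

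Histones are the proteins that DNA is wound around. Clustered, replication-dependent histone genes lie in gene clusters and are transcribed mainly in S phase, when new DNA must be packed. Their mRNAs are the main class of animal mRNA without a poly(A) tail and end in a short stem-loop that the stem-loop binding protein SLBP holds. Variant histones such as H3.3, H2A.Z and macroH2A are made through the whole cell cycle, mostly from ordinary polyadenylated mRNAs with introns. IGF2BP3 is one of a family of proteins that bind mRNAs and regulate their stability and translation, and the comparison of its IP with the IgG IP asks which histone mRNAs come down with it.

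The stem-loop was searched for in the 150 bases after each stop codon on GRCh38, sense strand, as the run of GGC, any base, CTTTT, any base, AG, any base and GCC. A match describes letters in the genome and not a bound site. It was found in 62 of the 66 clustered genes (93.9%), in 6 of the 27 variant genes (22.2%) and in 68 of all 19924 protein-coding genes searched (0.341%), all of them histone genes of the set. It began 22 to 67 bases after the stop codon. The sequences below show the end of the mRNA that most clustered genes share. They are those of the clustered gene with the highest mean TPM in each family, *H3C3* and *H3C8* with the most positive and most negative replicate 1 difference among clustered genes, and the tested variant genes that hold the letters. TPM values are scaled for library depth and transcript length. Each lies in the 3′ UTR of the gene's canonical transcript. Capitals mark the 16 matching bases, and all sequences read 5′ to 3′ on the gene's strand.
H1-5 (chr6:27866792-27866817, minus strand): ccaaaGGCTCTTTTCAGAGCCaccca
H2AC14 (chr6:27814303-27814328, minus strand): acaaaGGCTCTTTTCAGAGCCacttc
H2BC12 (chr6:27146361-27146386, minus strand): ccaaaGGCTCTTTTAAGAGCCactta
H3C2 (chr6:26031592-26031617, minus strand): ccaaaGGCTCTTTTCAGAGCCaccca
H4C4 (chr6:26188710-26188735, minus strand): ccaacGGCCCTTTTCAGGGCCaccta
H3C3 (chr6:26045844-26045869, plus strand): gaaaaGGCTCTTTTCAGAGCCactca
H3C8 (chr6:26270918-26270943, minus strand): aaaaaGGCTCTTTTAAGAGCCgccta
H2AW (chr1:228457364-228457389, minus strand): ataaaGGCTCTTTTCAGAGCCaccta
H2BU1 (chr1:228458533-228458558, plus strand): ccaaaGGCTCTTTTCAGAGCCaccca
H2AX (chr11:119094893-119094918, minus strand): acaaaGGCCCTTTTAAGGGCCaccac
H4-16 (chr12:14770719-14770744, minus strand): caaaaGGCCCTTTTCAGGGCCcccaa

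The 68 genes held 7 versions of the letters. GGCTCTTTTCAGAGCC stood in 41 genes, 4 of H1, 13 of H2A, 12 of H2B and 12 of H3, and in no H4 gene. H4 genes held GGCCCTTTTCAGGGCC in 10 cases and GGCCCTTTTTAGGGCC in 4. Clustered genes without a match were *H3C6*, *H2BC10*, *H2AC15* and *H4C13*, and the variant genes with one were *H3-2*, *H3-4*, *H2AW*, *H2BU1*, *H2AX* and *H4-16*. The polyadenylation signal AATAAA stood in the last 50 bases of the canonical transcript in 3 clustered genes (4.55%), *H2BC21*, *H2BC9* and *H4C11*, in 13 variant genes (48.1%) and in 63.4% of all protein-coding genes. All 66 clustered genes had a canonical transcript of 1 exon. Annotated lengths of the clustered transcripts ran from 387 to 2224 bases.

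Library totals ran from 9758759 to 14886414 counts on genes. All 12 MCC markers looked up, among them *KRT20*, *CHGA* and *ATOH1*, had counts in every library, and their sum made up 0.491% to 0.561% of the counts. Of 13 markers of fibroblasts, immune cells, keratinocytes and endothelium, 5 were at 0 in every library, among them *PTPRC*, *CD3E*, *COL3A1* and *KRT14*. Only *DCN*, with 479 to 762 counts, had more than 11 counts in any library. In such bulk libraries, fewer cells of a type and less RNA per cell cannot be told apart. *IGF2BP3* mRNA itself differed little, with log2 fold changes of -0.04 (standard error 0.07) for IGF2BP3 IP against IgG IP and 0.02 (standard error 0.06) for replicate 1 against replicates 2 and 3.

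Among clustered genes, *H1-5*, which encodes the linker histone H1.5, had the highest mean TPM of 4400. It was followed by *H4C4*, a core histone H4 gene, with 3376, *H4C12* with 2851, *H4C3* with 2723 and *H4C8* with 2648. The value of *H4C12* is uncertain, since it shares sequence with *H4C11* and had few counts, as given further below. The highest in the other families were *H2AC14* with 1835, *H3C2* with 1466 and *H2BC12* with 786. Variant genes were led by *H3-3A* with 2374 and *H3-3B* with 1582, the 2 genes for H3.3. *H2AZ1* and *H2AZ2*, which encode H2A.Z, followed with 1115 and 472, and *MACROH2A1* had 306. *H1-10* had 116 and *H2AX* 53.0. TPM differed between libraries, and no order of neighbouring genes was tested.

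Taken as a share of all counts, clustered histone genes held about as much in IGF2BP3 IP as in IgG IP, and far more in replicate 1 than in replicates 2 and 3 of both groups. Their share was 1.54%, 0.733% and 0.753% in IgG IP replicates 1 to 3. In IGF2BP3 IP replicates 1 to 3 it was 1.45%, 0.687% and 0.746%. Both replicate 1 libraries lay above all others, well outside counting error: the 95% Wilson binomial interval, which covers counting error only, was 1.53% to 1.54% in IgG IP replicate 1 and 0.748% to 0.757% in IgG IP replicate 3. Variant genes held 0.482%, 0.484% and 0.471% in IgG IP and 0.449%, 0.448% and 0.467% in IGF2BP3 IP, where replicate 1 did not stand apart. The ratio of clustered to variant counts was thus 3.19 and 3.23 in the replicate 1 libraries and between 1.52 and 1.60 in the other 4. On summed TPM the ratio was 10.4 and 10.6 against 5.24 to 5.74. *H1-5* alone held 20.1% to 26.2% of the clustered counts.

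**Figure D1:**
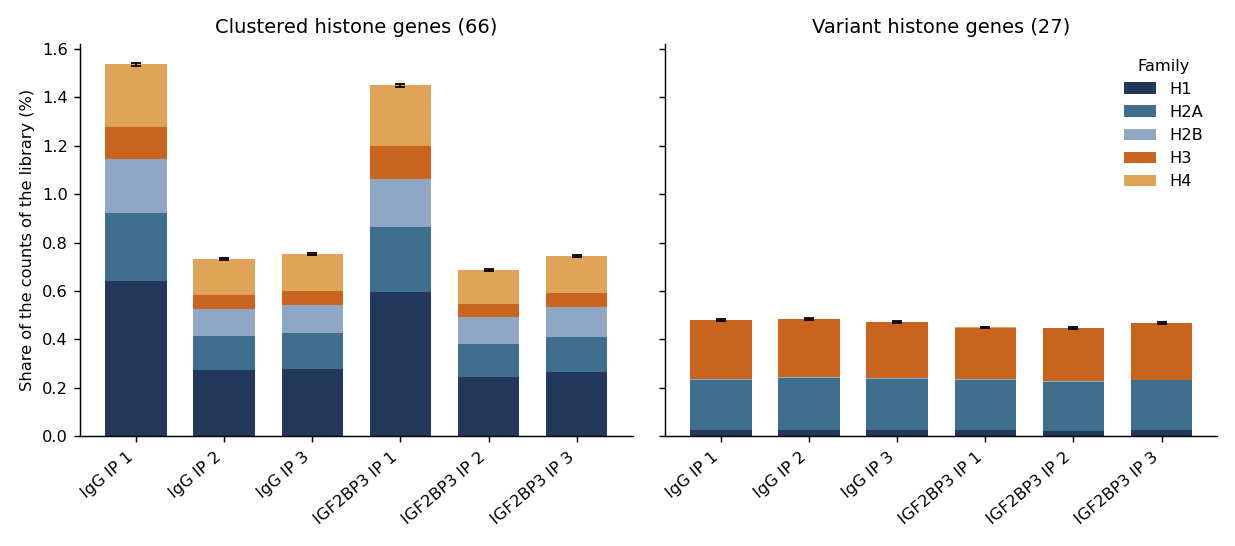
Share of the counts of each library, in percent, on the 66 clustered and the 27 variant histone genes, stacked by family, with 95% Wilson intervals of the totals as error bars. Clustered genes reached 1.54% and 1.45% in the replicate 1 libraries and at most 0.753% in the others, whereas variant genes stayed between 0.448% and 0.484%.

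Across the whole table, 14507 genes passed the expression filter of edgeR and were tested. Histone genes tested were 52 clustered and 12 variant genes. Of the 14 clustered genes not tested, 2 were at 0 counts in every library and none had more than 19 counts in any. Among the 15 variant genes not tested, 9 were at 0 and none had more than 13 counts. Calls required a 1.5-fold change or more and an adjusted p-value (Benjamini-Hochberg) under 0.05 in the quasi-likelihood test of edgeR.

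Replicate 1 was compared with replicates 2 and 3 over both groups, with condition as a covariate. This comparison was also chosen with earlier results of these data known. The test counts same-numbered libraries of the groups as independent. If they share a batch, its p-values and standard errors do not cover the spread between batches. Of the 52 clustered genes, 42 (80.8%) were called higher in replicate 1 and 1 was called lower, against 3.56% higher and 4.29% lower among all tested genes. Their median log2 fold change was 0.94, where that of all tested genes was -0.01, and 49 of 52 were above 0. Among the 12 variant genes 1 was called higher and 2 lower, with a median of 0.05. The difference between the classes was not tested as such. The replicate number is the only batch label, and what set replicate 1 apart was not tested.

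Genes of every family were called higher, namely 3 of 5 tested H1 genes (median log2 fold change 1.11), 11 of 11 H2A genes (0.99), 13 of 15 H2B genes (0.90), 7 of 9 H3 genes (0.98) and 8 of 12 H4 genes (0.89). By place, 38 of 45 clustered genes on chromosome 6 and 4 of 7 on chromosome 1 were called higher. Clustered genes with a mean of at least 10 CPM (counts scaled to library size after TMM normalization) were called higher in 39 of 42 cases, and those under 10 CPM in 3 of 10.

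*H3C3*, a core histone H3 gene, had the largest log2 fold change of the histone genes. Its CPM were 130, 32.6 and 30.2 in IgG IP replicates 1 to 3. In IGF2BP3 IP replicates 1 to 3 they were 143, 31.5 and 30.9. Replicate 1 stood at 136 ± 9.37 (SD, n = 2) and replicates 2 and 3 at 31.3 ± 1.02 (SD, n = 4), a log2 fold change of 2.12 (adjusted p = 6.1e-24 by edgeR, standard error 0.07). Both SDs and the p-value treat same-numbered libraries as independent. *H3C2*, which encodes the same kind of histone, followed, with CPM of 617, 204 and 209 in IgG IP and 650, 198 and 218 in IGF2BP3 IP and a log2 fold change of 1.61 (standard error 0.05).

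*H1-5* had CPM of 4249, 1598 and 1635 in IgG IP and 3732, 1368 and 1503 in IGF2BP3 IP. Its log2 fold change was 1.39 (adjusted p = 6.1e-24 by edgeR, standard error 0.05), and the 2 replicate 1 values lay far above the other 4. Its linker histone relatives *H1-2* and *H1-4* rose by 1.11 each on the log2 scale. *H4C4* had CPM of 724, 348 and 366 in IgG IP and 591, 280 and 359 in IGF2BP3 IP, a log2 fold change of 0.96 (standard error 0.06). *H2BC12*, a core H2B gene, had 293, 128 and 124 in IgG IP and 298, 152 and 157 in IGF2BP3 IP, a log2 fold change of 1.08 (standard error 0.06). For *H2AC14*, a core H2A gene, the values were 441, 211 and 243 in IgG IP and 356, 207 and 218 in IGF2BP3 IP, with a log2 fold change of 0.85 (standard error 0.06). In each of these genes the replicate 1 libraries did not overlap the others.

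Other large log2 fold changes were those of *H2AC11* (1.54), *H2BC17* (1.52), *H2AC15* (1.44) and *H2AC12* (1.41). *H2AC15* and *H4C13* (0.98), the only tested clustered genes without the stem-loop letters, were also called higher. At the lower end of the calls stood *H2AC16* and *H4C1*, both at 0.59, just past the 1.5-fold minimum, and both calls were lost without IgG IP replicate 1 or 3 and that of *H2AC16* without IgG IP replicate 2. Of the 9 clustered genes not called, *H2BC18* (0.56), *H4C8* (0.47) and *H3C1* (0.43) had adjusted p-values under 0.05 by edgeR and were below that minimum. The others, *H4C14*, *H4C15*, *H4C9*, *H1-6*, *H1-3* and *H2BC9*, held 67 to 530 counts over the 6 libraries.

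*H3C8* went the other way. It had 6, 44 and 38 counts in IgG IP and 8, 35 and 30 in IGF2BP3 IP, or 0.65, 2.95 and 3.06 CPM and 0.672, 2.64 and 2.44 CPM. The log2 fold change was -2.04 (adjusted p = 1.2e-04 by edgeR, standard error 0.40), from low counts in all libraries. *H2BC9* and *H1-3*, with log2 fold changes of -0.98 and -0.34, were not called. Counting only the order of the libraries, both replicate 1 libraries lay above all others in 48 of 52 clustered genes, an order found in 18.1% of all tested genes, and below them in *H3C8* and *H2BC9*, an order found in 19.1%.

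None of the abundant variant genes was called. *H2AZ1* had CPM of 609, 618 and 626 in IgG IP and 603, 562 and 576 in IGF2BP3 IP, a log2 fold change of 0.03 (standard error 0.05). *H3-3A* had 1303, 1159 and 1074 in IgG IP and 987, 1057 and 1111 in IGF2BP3 IP, a log2 fold change of 0.05 (standard error 0.06). *H3-3B* had 1304, 1238 and 1234 in IgG IP and 1146, 1121 and 1179 in IGF2BP3 IP, a log2 fold change of 0.04 (standard error 0.05). For *H2AZ1* both replicate 1 libraries lay among the others. For *H3-3A* IgG IP replicate 1 was the highest and IGF2BP3 IP replicate 1 the lowest of the 6 libraries, and for *H3-3B* IgG IP replicate 1 was the highest. *H2AZ2* (0.06), *MACROH2A1* (0.09), *H2AX* (0.21), the H2A that is phosphorylated at DNA breaks, and *H1-10* (0.35) were not called either, nor was *MACROH2A2* at -0.28. These small values turned sign for some genes under other scalings, which are given in the closing section.

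Of the 12 variant genes, the one called higher was *H2AW*, whose end is printed above, with CPM of 59.8, 38.3 and 37.5 in IgG IP and 64.3, 36.6 and 39.4 in IGF2BP3 IP and a log2 fold change of 0.71 (adjusted p = 5.0e-09 by edgeR, standard error 0.08). Its neighbour *H2BU1*, with the same 16 letters, had a log2 fold change of 0.50 and was below the 1.5-fold minimum. In GENCODE version 44, used for the coordinates, *H2AW* is named *H2AC25* and *H2BU1* is named *H2BC26*. By those names the rule would have counted both as clustered genes. *H4-16*, an H4 gene on chromosome 12 with the letters, was lower at -0.79 (adjusted p = 0.025 by edgeR, standard error 0.27) from 22 to 67 counts per library, a call that was lost with DESeq2 (log2 fold change -0.79), within either group alone and without IgG IP replicate 1 or 2 or IGF2BP3 IP replicate 1 or 3. The *H2AW* value fell short of the 1.5-fold minimum with a per-library correction for effective transcript length and on both TPM scales. In the order of libraries, replicate 1 lay above the others in *H2AW*, *H2BU1*, *H1-10* and *H2AX* and below them in 3 genes, *MACROH2A2* and *H4-16* among them. These orders were found in 18.1% and 19.1% of all tested genes. Among 12 genes, such counts are no result about the variants.

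**Figure D2:**
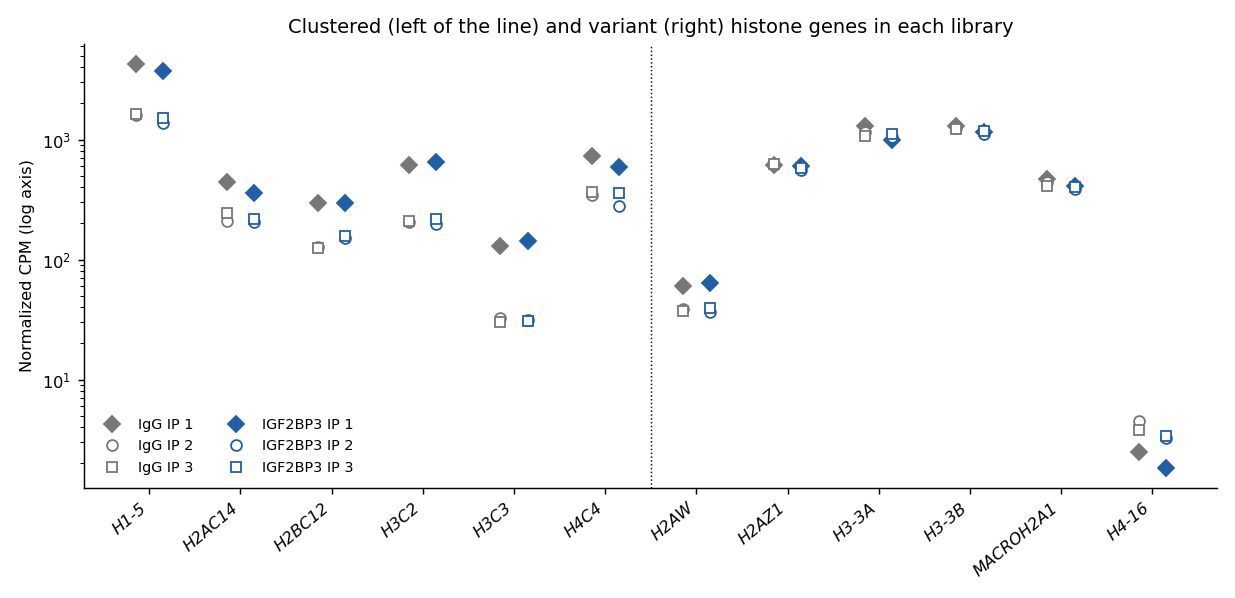
Normalized CPM on a log axis of 6 clustered (left of the dotted line) and 6 variant (right) histone genes in each of the 6 libraries, IgG IP in grey and IGF2BP3 IP in blue, with filled diamonds for replicate 1. The diamonds stood above the open symbols in the 6 clustered genes and in *H2AW*, below them in *H4-16*, and among them or on both sides of them in *H2AZ1* and *H3-3A*.

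The replicate 1 difference was present in both groups. Within IgG IP alone the median log2 fold change of the 52 clustered genes was 1.02, and within IGF2BP3 IP alone 0.90, with 42 and 37 genes called higher, against 3.27% and 2.88% of all tested genes. All 49 genes above 0 in the fit of both groups were above 0 in each group, and 3 were below 0 in each. The test of the difference between the groups (interaction of condition and replicate 1 in edgeR) found no histone gene with an adjusted p-value under 0.05, against 0.0965% of all tested genes, the smallest being 0.12 for clustered and 0.19 for variant genes. At an unadjusted p-value under 0.05 there were 10 clustered genes (19.2%), 9 of them with the smaller difference in IGF2BP3 IP, and 1 variant gene, against 7.53% of all tested genes.

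Other features moved with replicate 1. Short transcripts in general were higher in it. Among 318 other protein-coding genes with canonical transcripts of 300 to 800 bases, 76 (23.9%) were called higher, with a median log2 fold change of 0.34. That range holds 51 of the 52 clustered genes and was chosen after their values were seen. The share was larger among the shortest. Of 55 other genes with 362 to under 512 bases, 23 (41.8%) were called higher, with a median of 0.50. With a correction of each library for effective length, the clustered genes had a median of 0.60. In that fit 26 of 52 were called higher, against 2.52% of all tested genes. The 318 other short genes then had a median of 0.03, and 5.66% were called higher. On log2(TPM + 1) with limma-trend, where all genes shifted by -0.36, the median of the clustered genes was 0.45, or 0.80 above that of all genes, and 16 of 52 were called higher, against 0.345% of all tested genes. The median of the variant genes relative to all genes was -0.04 on that scale, and 3 of 12 were called lower, against 19.2% of all tested genes.

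**Figure D3:**
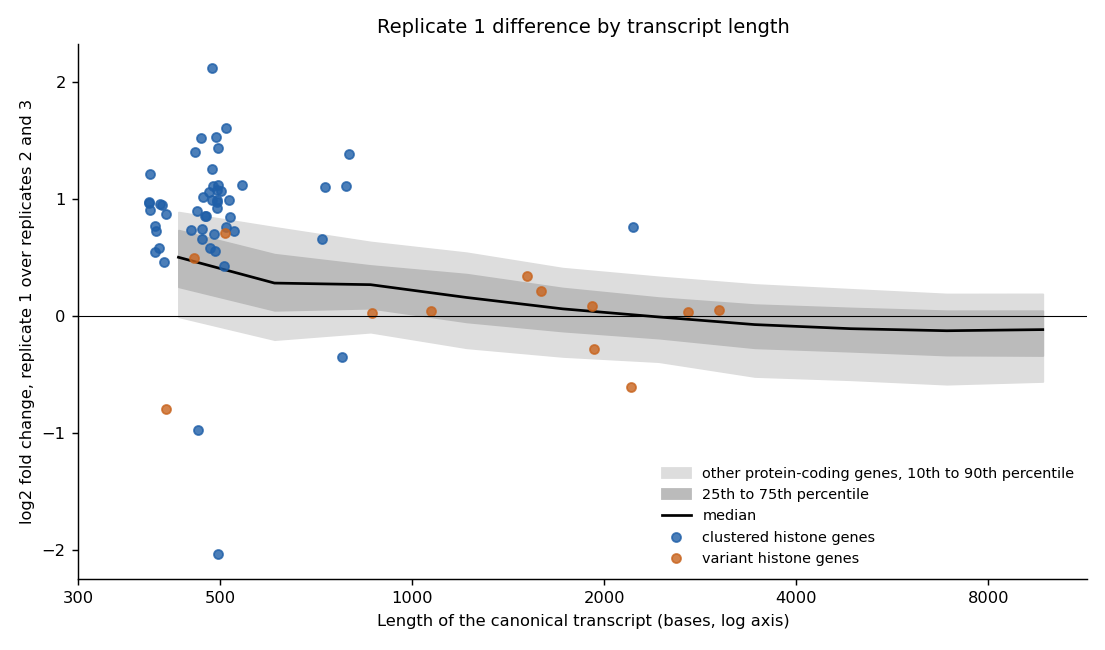
Fitted log2 fold change of replicate 1 over replicates 2 and 3 against the length of the canonical transcript in bases (log axis) for 52 clustered and 12 variant histone genes, over the median and percentile bands of other tested protein-coding genes in bins of length. The median of other genes fell from 0.50 at 362 bases and more to -0.11 at 8192 bases and more, and 33 clustered but 0 variant genes lay above the 90th percentile of their length bin.

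RNAs that wholly or in part lack a poly(A) tail were looked up beside the histone genes because clustered histone mRNAs lack one too, and 3 of 12 listed identifiers were tested. *RN7SL1*, the RNA of the signal recognition particle, rose by 1.63 on the log2 scale, *MALAT1* had a log2 fold change of 0.44 and *NEAT1* one of -0.33. *RN7SK*, at 0 counts in every library, had TPM of 105483, 51233 and 59519 in IgG IP and 100946, 37406 and 43325 in IGF2BP3 IP. *RPPH1*, also at 0 counts, had TPM of 35040, 13607 and 14608 in IgG IP and 32447, 13519 and 12263 in IGF2BP3 IP. In both, the replicate 1 libraries were the highest. These 2 were named after their values were seen. Of the 9 listed identifiers not tested, 8 had TPM above 0, and in 6 of the 8 both replicate 1 libraries lay above all others. The exceptions were *SCARNA2*, with TPM of 1555, 1507 and 1331 in IgG IP and 1332, 1371 and 1150 in IGF2BP3 IP, and *TERC*, the telomerase RNA, whose TPM was lowest in replicate 1 of each group. *RMRP* gave 2 of the 6 identifiers. On CPM the order was found in 18.1% of all tested genes, and no such share was computed for TPM. The sources used here do not say whether RNA was selected for poly(A) tails. The part of length, of these RNAs or of RNA selection in the histone difference was not tested beyond these values.

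Among genes that act in histone gene transcription and pre-mRNA processing, 0 of 24 tested were called in either direction, where 3.56% of all tested genes were called higher and 4.29% lower. Counts of this size in short lists, here and in the decay, chaperone and cell cycle lists, lie near those shares and are no result about the lists. *SLBP* had CPM of 278, 258 and 255 in IgG IP and 265, 235 and 227 in IGF2BP3 IP, a log2 fold change of 0.16 (standard error 0.06). *NPAT*, the coactivator of clustered histone genes, had -0.16 (standard error 0.06), and *CASP8AP2*, which acts with it at histone genes, -0.03 (standard error 0.06). Of 15 histone mRNA decay genes 0 were called, and of 27 tested histone chaperones 2 were called lower, *SUPT6H* at -0.67 and *CABIN1* at -0.66. Among other S phase genes 1 of 23 was higher, *CDT1* at 0.70. Among G2 and M phase genes it was 1 of 20, *NUSAP1* at 1.20, from 7 to 18 counts per library. The TPM of *NUSAP1* was 136, 150 and 174 in IgG IP and 165, 194 and 161 in IGF2BP3 IP. On that scale replicate 1 was the highest in neither group. The medians of these 5 lists ran from -0.04 to 0.08. Of 12 mitochondrial mRNAs, 4 were called higher, *MT-CO2* among them at 0.73, against the 3.56% of all tested genes. No MCC marker was called, but their median log2 fold change was -0.22 and 9 of 12 were below 0. With no minimum on the fold change, 8 of the 12 were lower and 0 higher at an adjusted p-value under 0.05 by edgeR, against 17.2% and 14% of all tested genes. *SYP*, which encodes the synaptic vesicle protein synaptophysin, was at -0.46 and *NCAM1*, a cell adhesion gene, at -0.35. The part of this marker shift in the histone difference was not tested.

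Comparing IGF2BP3 IP with IgG IP, edgeR called 0 of the 64 tested histone genes in either direction, where 1.16% of all tested genes were called higher and 0 lower. With unadjusted p-values under 0.05 in edgeR there were also 0 histone genes, against 12.8% of all tested genes, and with DESeq2 0 were called as well, against 0.963% of all genes higher and 0 lower. The median log2 fold change was -0.11 for clustered and -0.12 for variant genes, with ranges of -0.38 to 0.46 and -0.36 to 0.09. This comparison uses the same libraries as that of replicate 1, whose difference sits inside each group and widens the intervals. The median standard error of clustered genes was 0.34 without and 0.07 with the replicate number as a block, and that of variant genes 0.11 and 0.06.

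For *H1-5*, the IGF2BP3 IP libraries had 2201 ± 1328 CPM (SD, n = 3) and the IgG IP libraries 2494 ± 1521 CPM (SD, n = 3), and the values of the groups overlapped. The 95% interval of its log2 fold change ran from -1.22 to 0.86 without the block and from -0.28 to -0.08 with it. Intervals within 1.5-fold in both directions were found for 2 of 52 clustered and 8 of 12 variant genes without the block, and for 43 and 11 with it. A term for replicate 1 alone, in place of the block, also gave 43 and 11. A change of 1.5-fold in most clustered genes was thus not detectable without the block or that term.

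The clustered genes with the smallest p-values were *H1-3* (log2 fold change -0.38, standard error 0.21), *H3C1* (-0.24, standard error 0.17), *H2AC16* (0.27, standard error 0.22), *H4C8* (-0.19, standard error 0.17) and *H3C13* (-0.35, standard error 0.31). The smallest adjusted p-value among clustered genes was 0.49 by edgeR. Among variant genes they were *H3-3B* (-0.13, standard error 0.07), *MACROH2A1* (-0.14, standard error 0.08), *H3-3A* (-0.16, standard error 0.09), *H2AZ1* (-0.09, standard error 0.07) and *H4-16* (-0.36, standard error 0.31), with a smallest adjusted p-value of 0.50. Every IGF2BP3 IP library lay below every IgG IP library in *H2AZ1*, *MACROH2A1* and *H3-3B* (p = 0.10 in a two-sided exact permutation test, the lowest value possible for 3 against 3 libraries), an order found in 8.69% of all tested genes. No histone gene had the opposite order, which was found in 12% of all tested genes.

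Within same-numbered pairs, 3 clustered genes were higher in IGF2BP3 IP in all pairs and 21 of 52 were lower in all pairs, against 25.1% and 23.5% of all tested genes. Among the 12 variant genes 0 were higher and 8 were lower in all pairs. With the replicate block and no minimum on the fold change, 3 clustered genes had an adjusted p-value under 0.05 and were higher, against 10.9% of all tested genes, and 10 were lower, against 5.23%. The higher ones were *H2AC16* (0.30), *H4C3* (0.23) and *H2BC12* (0.20). The lower ones were *H4C13* (-0.32), *H1-5* (-0.18), *H2AC8*, *H2AC12*, *H2BC3*, *H2BC4*, *H2BC5*, *H3C1*, *H4C4* and *H4C8*. No variant gene was among them, and none of the 13 reached 1.5-fold. With a term for replicate 1 alone in place of the block, 3 clustered genes were higher and 12 lower at an adjusted p-value under 0.05 by edgeR, against 11.8% and 6.65% of all tested genes. In that fit 3 variant genes were lower as well, *H3-3A*, *MACROH2A1* and *H3-3B*, with a smallest adjusted p-value of 0.035. By fold change of at least 1.5, the block called 0 histone genes, against 3.56% higher and 0.103% lower among all tested genes.

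**Figure D4:**
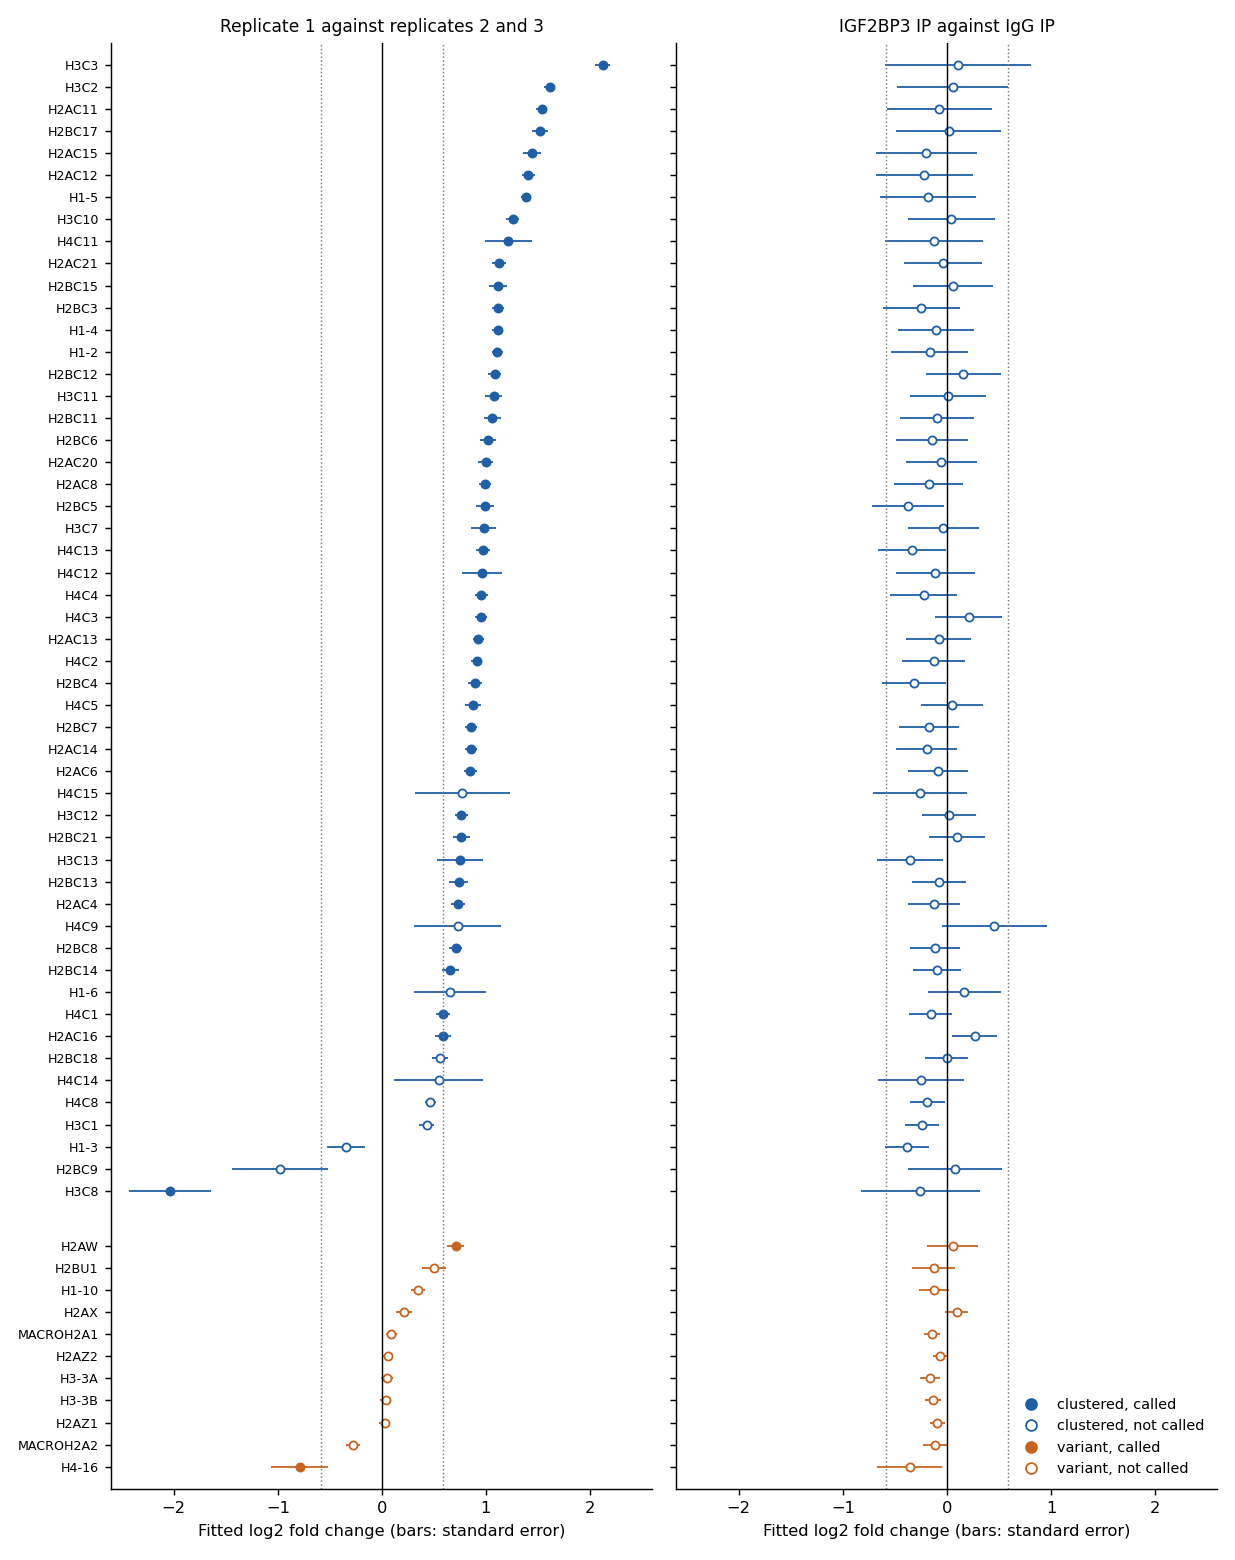
Fitted log2 fold changes with standard errors of the 52 clustered (blue) and 11 of the 12 variant (orange) tested histone genes, for replicate 1 against replicates 2 and 3 (left) and for IGF2BP3 IP against IgG IP (right), with dotted lines at 1.5-fold and filled points for genes called. On the left 42 clustered genes were called higher, and on the right no gene was called.

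**Figure D5:**
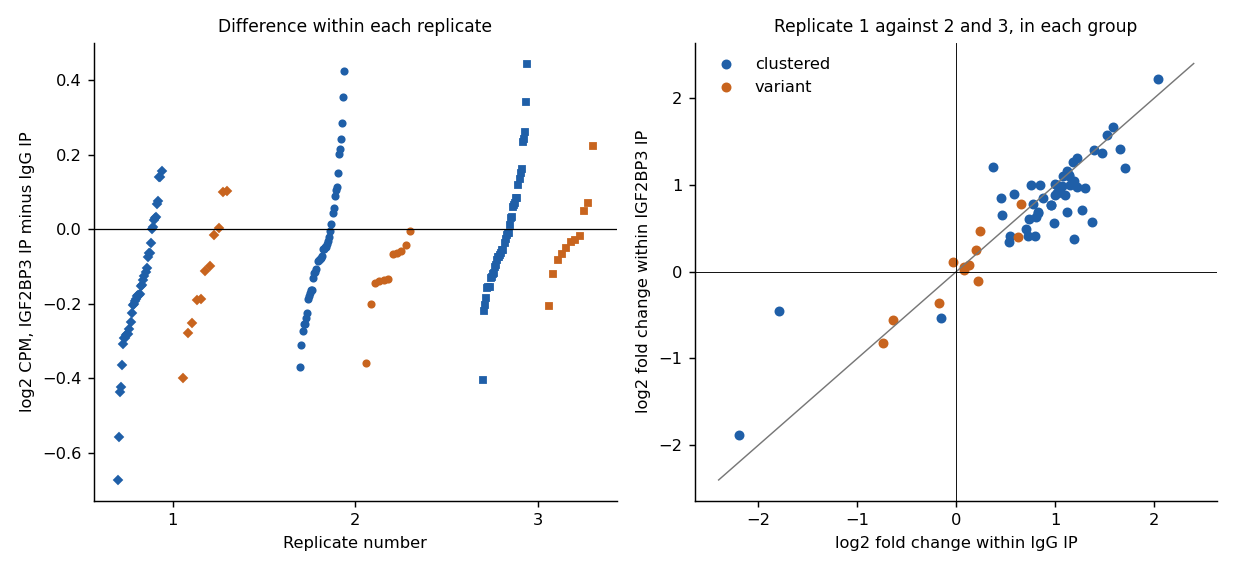
Left, differences in log2 CPM between IGF2BP3 IP and IgG IP within each replicate number for the 42 clustered (blue) and 11 variant (orange) genes with at least 10 CPM in IgG IP, ordered by value, with medians of clustered genes of -0.18, -0.06 and -0.03. Right, log2 fold changes of replicate 1 within IgG IP and within IGF2BP3 IP for all 64 tested genes, where 49 clustered genes were above 0 on both axes and the grey line marks equality.

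None of the pathway lists had a gene called in IGF2BP3 IP against IgG IP, where 1.16% of all tested genes were called higher and 0 lower. In lists this short, counts of 0 lie near those shares and are no result about the lists. For *SLBP* the log2 fold change was -0.12 (standard error 0.09), for *NPAT* -0.01 (standard error 0.09) and for *CASP8AP2* -0.14 (standard error 0.08).

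Several clustered genes share their sequence with another gene, and their counts and TPM disagreed, so their values are uncertain. *H4C14* and *H4C15* are alike over every stretch of 100 bases. Both had 7 to 18 counts per library, while the TPM of *H4C14* ran from 1029 to 1295 and that of *H4C15* from 4.13 to 12.6. *H2AC18* and *H2AC19* had 2 to 9 counts, with TPM of 64.4 to 539 and 442 to 1307, and the lowest value of the first and the highest of the second fell in the same library, IGF2BP3 IP replicate 1. *H3C14* and *H3C15* had at most 8 counts and equal TPM in each library, 36.6 to 64.2. *H4C11* and *H4C12*, which share over 90.7% and 91.3% of such stretches, had 34 to 103 counts and TPM of 399 to 1032 and 2278 to 3795. *H3C4*, at 0 counts in every library, had TPM of 614 to 801, and *H2AC7* and *H2AC17* had at most 9 counts with TPM of 524 to 1237 and 1019 to 1505. The first 2 of these 3 overlap another annotated gene on the same strand, and *H2AC17* overlaps *H3C12*. Without the genes at 0 counts, the ratio of clustered to variant TPM in replicate 1 over replicates 2 and 3 differed by 0.94 on the log2 scale, against 0.93 with them and 1.04 from the counts.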

How the data were processed

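RIP-seq was performed by the authors in WaGa cells with 5 µg of IGF2BP3 or IgG antibody and paired-end reads of 150 bp. Per the submitters' processing notes and the methods, the reads were aligned to GRCh38 with STAR 2.7.9a and quantified with RSEM and GENCODE version 37. The deposited counts are whole-number, unnormalized read counts per gene. The program that made them, its use of strand and any poly(A) selection are not given in the sources used here. The authors also deposited TPM and FPKM values of the same libraries, scaled for depth and length. Here TPM served for levels and as an alternative, and FPKM with the counts gave effective lengths.

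Groups and replicate numbers came from the labels. In edgeR 4.0.16 (R 4.3.3), low counts were removed by filterByExpr, TMM factors set the library sizes, and 14507 genes were tested by quasi-likelihood with Benjamini-Hochberg adjustment. Called genes had a fold change of at least 1.5 and an adjusted p-value under 0.05. IGF2BP3 IP against IgG IP was fitted with condition alone, and replicate 1 against replicates 2 and 3 with condition as covariate. CPM are TMM-normalized. For single genes a two-sided exact permutation test over libraries was used. The histone genes, gene lists and comparisons were chosen with earlier results of these data known. Genes named are those called, the highest in TPM per family and class, the 5 smallest p-values per class and comparison, the best-known variants, *IGF2BP3*, *SLBP*, *NPAT*, *CASP8AP2*, list genes that were called and genes that share sequence. *H2AC11*, *RN7SK*, *RPPH1*, *MALAT1*, *NEAT1*, *SCARNA2*, *TERC*, *SYP* and *NCAM1* were otherwise named after their values were seen. The values of 1 variant gene and 1 marker gene are not reported here.

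Deviations from the group means correlated between same-numbered libraries at 0.64, 0.36 and 0.30 over the tested genes (replicates 1, 2 and 3). The numbers were taken to pair the samples, though these values set only replicate 1 apart. The cross pairs of replicates 2 and 3 correlated at 0.33 and 0.34, no lower than the 0.30 of replicate 3, so they do not show that 2 pairs with 2 or 3 with 3. Whether a pair shared a lysate is not given in the sources used here. Alternatives were DESeq2 1.42.0, RLE factors, library totals, other filters, limma 3.58.1 with a trend on log2(TPM + 0.1) and log2(TPM + 1), a per-library loess length correction (span 0.5), a replicate block, a replicate 1 term, single groups and leaving out each library. Tested on simulated counts of 14507 genes with 200 genes changed 2-fold, edgeR recovered 99% with 6 false calls in each comparison. The simulated spread came from the fit with a replicate 1 term, the changed genes were not of low counts, and no replicate 1 difference was added. The 99% therefore does not describe the real comparison of IGF2BP3 IP with IgG IP, where that difference widens the intervals.

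Coordinates, transcript ends and lengths came from GRCh38 with GENCODE version 44, where 91 of the 93 genes matched by identifier and 2 by symbol. Library totals of 9758759 to 14886414 counts set the counting error. With 3 libraries a group, no order of single genes can pass an exact test at 0.05.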

Additional observations from a re-analysis of the deposited data

How the results depend on the processing

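Counts of histone genes called in IGF2BP3 IP against IgG IP were 0 in both directions and classes under every alternative run, the replicate block included. Over all tested genes the alternatives called 0% to 3.7% higher and 0% to 0.159% lower, so counts of 0 lie near those shares. Both TPM scales and the fit without IGF2BP3 IP replicate 2 called no gene at all, and there the outcome was fixed. The block had median log2 fold changes of -0.09 for clustered and -0.13 for variant genes. It changed no call of a histone gene at 1.5-fold. Without single libraries the median of clustered genes ran from -0.48 (without IGF2BP3 IP replicate 1) to 0.32 (without IgG IP replicate 1), and that of variant genes from -0.14 to -0.10. On log2(TPM + 0.1) and log2(TPM + 1) the variant median was 0.031 and 0.029. For replicate 1 against replicates 2 and 3, leaving out single libraries gave medians of 0.87 to 1.02 for clustered genes and of 0.01 to 0.08 for variant genes. Without IGF2BP3 IP replicate 3 or IgG IP replicate 2, 1 variant gene was called lower, against 3.96% and 4.17% of all tested genes. Without IGF2BP3 IP replicate 1, *H2BU1* was also called higher.

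With the length correction, 26 clustered genes were higher and 2 lower (median 0.60), and 0 variant genes were higher and 1 lower (median -0.027). Over all tested genes 2.52% were higher and 3.64% lower in that fit. On both TPM scales, 16 clustered genes were higher and 2 lower (medians 0.45), and 0 variant genes were higher (medians -0.39). Of all tested genes, 0.345% were higher and 19.2% lower on log2(TPM + 1), and 0.414% and 23.3% on log2(TPM + 0.1). These scales shifted all genes by -0.36. With library totals the clustered median was 0.89, and with no filter 0.89 with 2 genes lower, against 2.42% of all genes. With at least 10 counts in every library, 0 clustered genes were lower, since *H3C8* was not tested. Within IgG IP the clustered median was 1.02, and within IGF2BP3 IP 0.90. DESeq2 called 1 variant gene lower, against 1.49% of all genes. On summed TPM, clustered over variant signal differed by 0.93 on the log2 scale, and by 0.94 without genes at 0 counts. The cause of these shifts was not tested.

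Signs of small differences turned, in genes that were not called. For replicate 1, the 2 TPM scales gave -0.11 and -0.10 for *H1-10*, -0.24 for *H2AX*, -0.45 for *H2AZ1*, -0.50 for *H2AZ2*, -0.45 for *H3-3A*, -0.32 for *H3-3B* and -0.34 for *MACROH2A1*. The length correction gave -0.18 for *H2AZ1*, -0.19 for *H3-3A* and -0.10 for *H3-3B*, and library totals gave -0.025, -0.0070 and -0.018. *H2AZ1* was -0.030 within IgG IP, and *H3-3A* was -0.11 within IGF2BP3 IP. Without single libraries, *H2AZ1* ran from -0.030 to 0.083, *H3-3A* from -0.14 to 0.22 and *H3-3B* from -0.0061 to 0.076. For IGF2BP3 IP against IgG IP, the TPM scales gave 0.041 for *H2AZ1*, 0.042 for *H2AZ2*, 0.060 for *H3-3B* and 0.030 for *MACROH2A2*. *H2AZ1* was 0.0023 with the length correction and 0.0069 with the replicate block and that correction. Without single libraries, *H1-10* ran from -0.28 to 0.0089, *H4C8* from -0.33 to 0.021 and *MACROH2A2* from -0.21 to 0.0046.

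Depth limits genes of few counts such as *H3C8* and *H4-16*. Of the called histone genes, *H2AC16* and *H4C1*, at the 1.5-fold minimum, and *H4-16* and *H3C13* were among those that lost the call most often. Counts do not separate genes that share sequence or overlap, and replicate number is the only batch label.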
